A study of Mus musculus with 2 samples.

Results

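The histone genes of mouse retinal microglia were described here in single cells. Members were all symbols in the count tables that begin with Hist1h, Hist2h, Hist3h, Hist4h, H2af or H3f, together with H1f0, which gave 80 of 31053 symbols. Of these, 67 were replication-dependent histone genes (Hist symbols), 12 were replacement histone genes, and H3f3aos, a noncoding antisense RNA, was kept out of every sum. The cells were sorted on CD45, a leukocyte surface protein that microglia also carry, from the retinas of perfused C57BL/6 mice and run on a 10x Chromium 3′ kit. One library was labelled wildtype and one was labelled as lacking Igfbpl1, a gene related to those of the insulin-like growth factor binding proteins, in order to compare microglia with and without it. The design text gives 10 mice of each genotype, matched by sex and 8 to 10 months old, and neither the number of mice in each library nor the altered allele was given in the sources used here.

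Histones are the proteins around which DNA is wound. Replication-dependent histone genes lie in clusters, are read mainly in S phase, and make mRNAs that end in a conserved stem-loop in place of a poly(A) tail; the stem-loop is bound by the protein SLBP. Replacement histones are made throughout the cell cycle from ordinary polyadenylated mRNAs, and some replication-dependent genes also give polyadenylated mRNAs, above all in cells that have left the cell cycle. Most adult microglia do not divide. The kit primes on poly(A), so counts of Hist genes cover only the molecules it can capture, and a level below is the level of captured molecules, counted once per molecule whatever its length, not of all histone mRNA.

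After filtering, 2692 cells of the library labelled wildtype and 1761 of the library labelled knockout were kept, and 2402 and 1452 of them were microglia-like, with 9817283 and 6643760 unique molecular identifiers (UMIs, each marking 1 captured molecule). At least 3 of 15 microglia markers were present in 99.9% or more of these cells in each library. This criterion hardly separates them from several other classes. It was also met by every border macrophage-like cell, 92.3% of T cell-like and 82.1% of monocyte-like cells. In the unnamed cluster led by Ttr and Ptgds 94.9% met it, but only 29.3% of Müller glia or astrocyte-like and 7.4% of rod-like cells did. In microglia-like cells the hallmark microglial gene Tmem119 stood at 1229.7 and 1252 counts per 1000000 UMIs of the summed cells (CPM). Markers of other retinal cells differed in level there. Rlbp1, a Müller glia gene, stood at 0.509 and 0.452 CPM and Gfap at 0 in both, whereas Glul, also listed for Müller glia, stood at 496 and 499 CPM, Rbpms, listed for ganglion cells, at 99.2 and 83.1 CPM and Prkca, listed for bipolar cells, at 30.7 and 37.6 CPM. Igfbpl1 itself went against the labels, with 2 counts in 2735 barcodes of the library labelled wildtype and 29 in 1785 of the library labelled knockout, so each direction below is one between libraries as labelled. Whether these 3′ counts lie in the altered part of the gene is not known here. One barcode was shared by both libraries. With 1 library per label there was no replicate and no test is given. Intervals are 95%, cover counting error only and are exact: Poisson for a level, Clopper-Pearson for a share, and the split of the counts for a ratio.

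The 3′ ends of the members differ, and they are shown first because the kit primes on poly(A). The stem-loop was searched by its 16-base consensus, fixed at 10 positions and open at 6, on the sense strand within 150 bases after the stop codon (GENCODE M21, GRCm38, the assembly also called mm10). Each gene was read from 1 annotated transcript, for members the one reaching farthest past the stop codon and for other genes the longest. Other genes were counted only with at least 150 bases after the stop codon, a limit not set for members. It was found in 45 of 67 replication-dependent members, in 1 of 12 replacement members (H2afx) and in 4 of 18710 other genes (0.0214%). The 45 matches fell into 8 spellings, of which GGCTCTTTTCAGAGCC was the most frequent, in 25 members. Shown first are the 6 most abundant Hist members with a match, then Hist1h2ab and Hist1h3c, relatives of low level, which were chosen after their values were seen, and last H2afx. Each window lies in the 3′ UTR of a protein-coding exon, is written 5′ to 3′, and has the stem-loop in capitals with 5 bases on either side.
Hist1h1e: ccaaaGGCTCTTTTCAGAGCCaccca
Hist1h4d: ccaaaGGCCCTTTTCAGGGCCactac
Hist1h1c: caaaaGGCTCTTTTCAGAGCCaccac
Hist1h2ae: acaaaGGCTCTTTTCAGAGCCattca
Hist3h2a: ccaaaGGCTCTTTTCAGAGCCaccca
Hist4h4: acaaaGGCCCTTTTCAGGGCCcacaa
Hist1h2ab: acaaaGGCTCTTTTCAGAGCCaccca
Hist1h3c: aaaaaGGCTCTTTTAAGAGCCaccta
H2afx: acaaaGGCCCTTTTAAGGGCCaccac

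On GRCm38 the window of Hist1h1e is chr13:23621777-23621802 on the minus strand, and that of Hist1h2ae is chr13:23570663-23570688, also on the minus strand. The Hist1h4d window is chr13:23581945-23581970 and the Hist1h1c window chr13:23739507-23739532, both on the plus strand. Hist1h2ab has its window at chr13:23751567-23751592 on the plus strand and Hist1h3c at chr13:23745042-23745067 on the minus strand. Outside the large cluster on chromosome 13, the Hist3h2a window is chr11:58955167-58955192 on the plus strand, the Hist4h4 window chr6:136803993-136804018 on the minus strand and the H2afx window chr9:44335235-44335260 on the plus strand. What followed the stem-loop differed. The annotated transcript ran on for 1153 bases in Hist1h1e, 770 in Hist1h4d, 840 in Hist1h1c, 1643 in Hist3h2a, 2445 in Hist4h4 and 822 in H2afx, but for only 151 in Hist1h2ae, 74 in Hist1h3c and 11 in Hist1h2ab. Over all 67 replication-dependent members, 22 ended within 100 bases of the stem-loop, 11 ran on for 101 to 500 bases and 12 for longer. Another 17 had no match and fewer than 150 bases after the stop codon, and are taken as ending before the stem-loop. The last 5 had no match and at least 150 such bases, and only this is meant by a long end with no match. One of the poly(A) signals AATAAA and ATTAAA stood in the last 40 bases of 6 of the 12 long members, 6 of the 11 of middle length, 4 of the 5 with no match, 1 of the 22 short ones and none of the 17 that end before, and of 73.4% of other genes.

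Replacement histones made up most histone counts of microglia-like cells. Their summed level was 2986 CPM in the library labelled wildtype and 2832 CPM in the library labelled knockout, against 473 and 399 CPM for the replication-dependent genes. The ratio of the library labelled knockout to the one labelled wildtype was 0.948 (0.931 to 0.966) for the replacement sum. For the replication-dependent sum it was 0.844 (0.804 to 0.885), and both lay below 1 by more than counting error. Neither sum stands for all its members. H3f3b held 16816 of 29313 and 10167 of 18815 replacement counts, with a ratio of 0.893. Of the 8 replacement members at 20 CPM or more, only H3f3b had an interval below 1. Hist1h1e held 995 of 4642 and 367 of 2651 replication-dependent counts, with a ratio of 0.545. Replication-dependent H2B genes went the other way, at 1.24. Sums without H3f3b or Hist1h1e were not tested. The replication-dependent ratio was 0.921 when cells with Mki67 or Top2a counts, which mark dividing cells, were left out. Beside it, 20 genes of the G2 and M phases summed to 159.5 and 71.0 CPM and 23 S-phase genes to 294 and 264 CPM.

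The 5 histone classes did not share a direction. Linker histone H1 genes (6 members) summed to 181 and 119 CPM, a ratio of 0.657 (0.603 to 0.714), and H3 genes (12) to 22.9 and 16.3 CPM, a ratio of 0.709 (0.559 to 0.896). Hist1h1e supplied 995 of 1780 and 367 of 791 H1 counts. Intervals held 1 for Hist1h1c (0.929) and Hist1h1d (0.934) but lay below 1 for Hist1h1b (0.407) and Hist1h1a (0.319), both of low level. H4 genes (13) stood at 104 and 94.1 CPM with a ratio of 0.901 (0.814 to 0.996). H2A genes (18) had a ratio of 0.917 whose interval, 0.829 to 1.01, held 1. H2B genes (18) were the class with the higher level under the knockout label, at 59.6 and 73.8 CPM and a ratio of 1.24 (1.10 to 1.40), and Hist1h2bc made up most of their counts. Cells with Mki67 or Top2a counts supplied 81 of 225 and 25 of 108 H3 counts. In the other cells H3 genes stood at 15.1 and 12.8 CPM, H1 at 152 and 106, H4 at 96.9 and 91.0 and H2B at 53.4 and 72.3. H2A genes stood there at 73.5 and 78.0 CPM, the opposite direction to that over all cells. Intervals of these class ratios without such cells were not computed.

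Counts were spread very unevenly over the members. At least 20 CPM in 1 library was reached by 7 of 67 replication-dependent and 8 of 12 replacement members. A further 20 replication-dependent members lay between 3 and 20 CPM, 35 lower with some count, and 5 had no count in either library. Of the other replacement members, H2afy2 had 6 and 2 counts, and H2afb1, H2afb2 and H2afb3 had none.

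H3f3b and H3f3a, which encode the same H3 variant, placed into chromatin outside replication, were the most abundant replacement members. H3f3b had 16816 counts (1713 CPM) in the library labelled wildtype and 10167 (1530.3 CPM) in the library labelled knockout, a ratio of 0.893 (0.872 to 0.916). H3f3a had 5478 (558 CPM) and 3874 (583 CPM), a ratio of 1.04. Both were found in most cells, H3f3b in 2255 of 2402 and 1367 of 1452.

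The variants of H2A followed. H2afz, one of the 2 genes of H2A.Z, a variant found at promoters, had 3491 counts (356 CPM) and 2333 (351 CPM), and H2afv, the other, had 637 (64.9 CPM) and 382 (57.5 CPM). H2afy, which encodes macroH2A, a variant of silent chromatin, had 1437 (146 CPM) and 996 (149.9 CPM). These 3 genes had intervals that held 1. H2afj, the gene of H2A.J, was higher under the knockout label, with 847 counts (86.3 CPM) and 688 (104 CPM) and a ratio of 1.2 (1.08 to 1.33). H2afx, whose protein is phosphorylated at DNA breaks, had 276 counts (28.1 CPM) and 163 (24.5 CPM), and H1f0, the linker histone of cells that have stopped dividing, had 325 (33.1 CPM) and 210 (31.6 CPM), again with intervals that held 1.

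Hist1h1e, a linker histone gene, was the most abundant Hist member and the one furthest apart between the libraries at this level. It had 995 counts in 651 cells of the library labelled wildtype and 367 counts in 248 cells of the library labelled knockout, or 101 and 55.2 CPM. Its ratio was 0.545 (0.482 to 0.615). Hist3h2a, an H2A gene outside the large cluster, went the other way with 239 counts (24.3 CPM) and 254 (38.2 CPM), a ratio of 1.57 (1.31 to 1.88). These were the 2 of 7 replication-dependent members past 1.5-fold in either direction, and none of the 8 replacement members was, where 1.54% of the 6227 genes at 20 CPM or more were. With a minimum of 50 CPM, Hist1h1e was the 1 of 9 members past that fold, against 1.24% of genes, and with no minimum 33 of 71 members with a count were, against 29.5%. The median log2 ratio was −0.25 for the 7, −0.04 for the 8 and −0.03 for all 6227. Annotated exons of Hist1h1e overlap those of Hist1h2be and Gm11398 on the same strand, and those of Hist3h2a overlap Trim17, so counts from the shared bases could not be assigned with certainty.

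The remaining 5 lay closer together. Hist1h2bc, an H2B gene with no stem-loop match in its annotated 3′ end, had 333 counts in each library, which is 33.9 and 50.1 CPM and a ratio of 1.48 (1.27 to 1.73). Hist1h4d had 517 counts (52.7 CPM) and 295 (44.4 CPM), a ratio of 0.843 (0.728 to 0.975), and Hist1h1c had 455 (46.3 CPM) and 286 (43.0 CPM), with an interval that held 1. Hist1h2ae had 328 counts (33.4 CPM) and 165 (24.8 CPM), a ratio of 0.743 (0.613 to 0.899). Hist4h4, just above the minimum, had 197 (20.1 CPM) and 93 (14.0 CPM), a ratio of 0.698 (0.539 to 0.897). Just below it, Hist2h2ac had 195 counts (19.9 CPM) and 65 (9.78 CPM), a ratio of 0.493 (0.366 to 0.655). Histone genes have near-identical copies, and counts of members whose reads could come from a copy are uncertain to that extent.

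**Figure D1:**
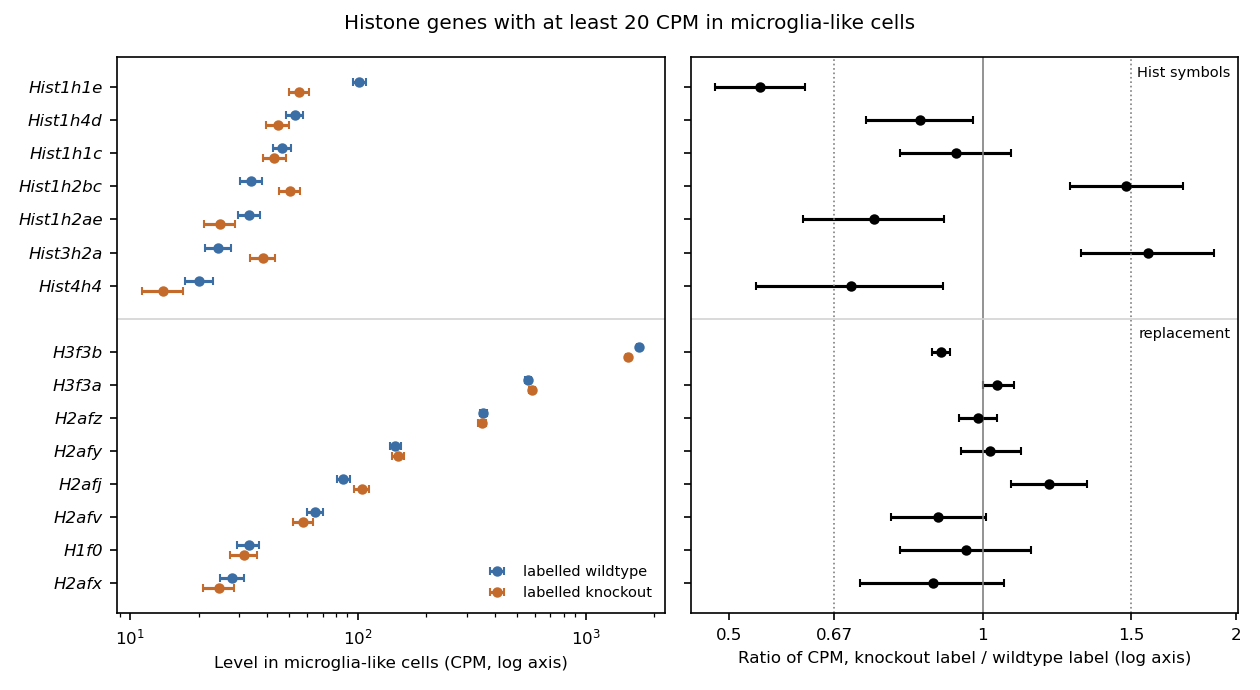
Left, level of each histone gene with at least 20 CPM in microglia-like cells (CPM, log axis) in the library labelled wildtype (blue) and the library labelled knockout (orange); right, ratio of both levels (log axis) with dotted lines at 1.5-fold. Bars are exact 95% counting intervals. Hist1h1e lies past the lower line at 0.545 and Hist3h2a past the upper at 1.57, and all 8 replacement genes lie between the lines.

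These differences were followed through the 9 microglia-like clusters, which were formed without histone and cell cycle genes. Microglia markers stood lowest in the one led by Fabp5 and Spp1, at a mean of 0.347 of their highest level in any cluster. Border macrophage-like clusters held 0.376 and 0.333, so the name of that cluster is less certain. Hist1h1e was lower under the knockout label in 9 of 9, with ratios from 0.146 in the cluster led by Fabp5 and Spp1 (125 and 18.3 CPM) to 0.768 in the cluster led by Stmn1 and Mki67 (429 and 329 CPM), and in 6 of them the interval lay below 1. It was also lower outside microglia, at 168 and 35.0 CPM in Müller glia or astrocyte-like cells (ratio 0.208, 0.0792 to 0.462). In border macrophage-like cells it stood at 44.3 and 25.2 CPM, with an interval of the ratio from 0.245 to 1.26. Hist3h2a was higher in 9 of 9 clusters, from 1.03 to 3.80, with the interval above 1 in 4, and higher in Müller glia or astrocyte-like cells (122 and 239.7 CPM) but not in border macrophage-like cells (32.6 and 32.1 CPM). Both genes thus had the same direction in microglia-like and in Müller glia or astrocyte-like cells, and with 1 library per label the genotype and the library cannot be told apart.

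Hist1h2bc had a pattern of its own. It was highest among microglia-like clusters in the one led by Fabp5 and Spp1, at 121 and 164 CPM in 31 and 34 cells, and stood at 3.9 and 0 CPM in the one led by Stmn1 and Mki67. It was higher under the knockout label in 7 of the 8 clusters with enough counts, with the interval above 1 in 2, and lower in border macrophage-like cells (74.6 and 36.7 CPM). Müller glia or astrocyte-like cells held 577 and 629 CPM of it. The 8 markers of those cells summed to 594 and 622 CPM in microglia-like cells, nearly all of it Glul (496 and 499 CPM), Slc1a3 (77.9 and 68.2) and Vim (18.1 and 51.5); their part in the Hist1h2bc difference was not tested. Hist4h4 had a ratio below 1 in the 5 clusters for which one was computed, with the interval below 1 in 2. No ratio was computed where a library had 0 counts. Of those clusters, the one led by Ifit3 and Isg15 went the other way, with 0 counts under the wildtype label and 4 under the knockout label. Counts were 0 and 1 in the cluster led by Stmn1 and Mki67 and 2 and 0 in the one led by Rps26 and Rplp1. The cluster led by Fabp5 and Spp1 had none.

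**Figure D2:**
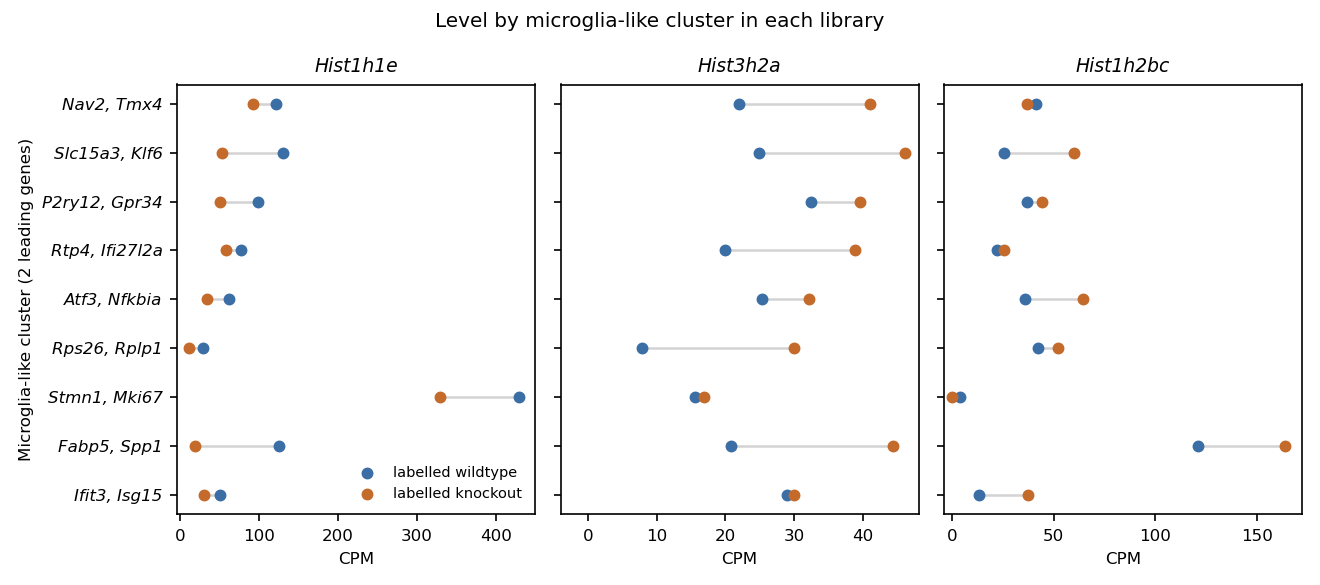
Level in CPM of Hist1h1e, Hist3h2a and Hist1h2bc in each of the 9 microglia-like clusters, named by 2 leading genes, in the library labelled wildtype (blue) and the library labelled knockout (orange). Every blue point lies to the right of its orange partner for Hist1h1e and to the left for Hist3h2a; Hist1h2bc peaks in the cluster led by Fabp5 and Spp1 (121 and 164 CPM).

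Cells with at least 1 count of Mki67 or Top2a, genes of dividing cells, were then set against the rest. They numbered 37 of 2402 (1.54%, 1.09 to 2.12) and 20 of 1452 (1.38%, 0.843 to 2.12), were deeper (medians of 7090 and 6557 UMIs against 3932 and 4388), and held 2.63% and 2.20% of the UMIs. Of them, 27 and 15 were in the cluster led by Stmn1 and Mki67. The replication-dependent sum was 3505 CPM with and 391 CPM without these counts under the wildtype label, a ratio of 8.97 (8.33 to 9.65), and 2142 and 359.8 CPM under the knockout label, a ratio of 5.95 (5.27 to 6.70). The replacement sum differed less, at 6650.2 and 2887 CPM (2.3, 2.19 to 2.42) and 5679 and 2768 CPM (2.05, 1.91 to 2.20).

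A few cells carried much of the replication-dependent signal. One cell of the library labelled knockout, with 16676 UMIs, held 163 counts of 27 Hist genes, which is 52.1% of that library's Hist counts in cells with Mki67 or Top2a. One cell of the library labelled wildtype, with 12653 UMIs, held 173 counts of 26 genes, or 19.1%. Without these 2 cells the ratios were 3.22 and 7.63, so the value under the knockout label rested largely on 1 cell, while the replacement ratios were 2.03 and 2.24. Within the cluster led by Stmn1 and Mki67, cells with Mki67 or Top2a held 4473 CPM of Hist counts under the wildtype label (27 cells, median of 7202 UMIs) and 3082 CPM under the knockout label (15 cells, median of 4170 UMIs). Cells of the same cluster without these counts still held 1801 and 2099 CPM of replication-dependent mRNA (17 and 6 cells), whereas cells with them in other clusters held 535 and 285 CPM (10 and 5 cells).

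By class, replication-dependent H3 genes had a ratio of 20.8 with over without under the wildtype label and 13.4 under the knockout label, H2A genes 17.0 and 11.4, H1 genes 8.32 and 6.73, H2B genes 5.44 and 1.89, and H4 genes 3.95 and 2.56. Among replacement histones, the H2A variants had ratios of 5.83 and 4.17 and the H3 pair 1.36 and 1.43. Over members with at least 3 CPM in 1 library, 19 of 27 replication-dependent and 3 of 8 replacement members were at least 2-fold higher in cells with Mki67 or Top2a in both libraries, where 5.98% of 10491 genes were. A member could pass that minimum through dividing cells alone, so that count is given as a description. With the minimum set in cells without Mki67 or Top2a it was 12 of 20 against 5.14% of genes, and without the cell richest in Hist counts in each library it was 15 of 27 against 5.75%.

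Some low Hist members had a large share of their counts in cells with Mki67 or Top2a. Hist1h1b, a linker histone gene whose annotated transcript ends at the stop codon, had 138 of 156 counts there under the wildtype label and 41 of 43 under the knockout label, from 22 and 7 cells in all. Its level was 534 CPM with and 1.88 CPM without in the first, and 281 and 0.308 CPM in the second, where 34 of the counts came from 1 cell. Hist1h3c had 40 of 46 and 10 of 11 counts there. Hist1h2af had 9 of 11 and 8 of 9 there, and Hist1h2ab 29 of 50 and 14 of 23. Shares differed more between the libraries for Hist1h2bm (15 of 21 and 1 of 3), Hist1h3i (9 of 13 and 2 of 5), Hist1h1a (24 of 37 and 1 of 8) and Hist1h2bj (18 of 35 and 5 of 13). Such cells held 2.46% of all UMIs, and these members were named for their counts there. Hist1h2ae stood at 631 CPM with and 17.3 CPM without under the wildtype label (ratio 36.5) and at 431 and 15.7 CPM under the knockout label (ratio 27.5). It reached 20 CPM over the class only through cells with Mki67 or Top2a, so its ratios are given as a description.

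Other abundant Hist members were shared by both kinds of cell. Hist1h1e stood at 395 CPM with and 93.4 CPM without under the wildtype label (4.22, 3.41 to 5.19) and at 239 and 51.1 CPM under the knockout label (4.69, 3.21 to 6.65; 2.42 without the richest cell). Hist1h4d had ratios of 4.95 and 3.94 (the latter 2.41 without the richest cell) and Hist1h1c 3.18 and 1.95, the latter with an interval (0.994 to 3.46) that held 1. Hist1h2bc, Hist3h2a and Hist4h4 were not higher in cells with Mki67 or Top2a. Hist1h2bc had ratios of 0.910 and 0.404 and Hist3h2a 0.790 and 0.531, with intervals that held 1. Hist4h4 had 0 counts in 258490 UMIs of such cells under the wildtype label (3 counts would be 11.6 CPM, and the exact upper limit is 14.3 CPM), against 20.6 CPM in the rest, and 1 count under the knockout label.

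The other members with at least 10 counts in such cells over both libraries were intermediate. All 8 stood below 20 CPM in cells without Mki67 or Top2a and were taken up through their counts in cells with them, so a ratio above 1 follows from that choice and is given as a description. Hist2h2ac had ratios of 20.3 and 24.3, Hist1h2ap 35.7 and 18.6, and Hist1h1d 8.74 and 8.65. For Hist1h3e they were 11.1 and 13.3, for Hist1h4h 8.89 and 3.56, for Hist2h2bb 8.8 and 7.02, for Hist1h2be 6.53 and 3.1 and for Hist1h4c 4.18 and 2.78. Intervals held 1 for Hist1h4h, Hist1h2be and Hist1h4c under the knockout label. Leaving out the richest cell lowered Hist2h2ac to 8.36 and Hist1h1d to 4.18 under the knockout label and took Hist2h2bb there to 0.

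Replacement genes also divided. H2afx had a ratio of 23.8 (18.5 to 30.5) under the wildtype label and 13.1 (8.79 to 19.0) under the knockout label, H2afv 9.67 and 8.45, and H2afz 7.40 and 5.0. H2afx stood at 17.6 and 19.4 CPM in cells without these counts. It reached 20 CPM only through cells with them, so its ratios are given as a description. H2afz was present in 36 of 37 and 19 of 20 cells with Mki67 or Top2a counts. H2afy (1.87 and 2.01), H3f3a (1.69 and 2.04) and H3f3b (1.25 and 1.2) were higher by less. H2afj (0.940 and 0.856) had intervals that held 1, and H1f0 was 2.04 (1.17 to 3.32) in one library and 0.428 (0.0514 to 1.56) in the other, where it rested on 2 counts.

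The share of counts in cells with Mki67 or Top2a was set against the transcript end. Summed over all members of an end class and with no minimum, the ratio with over without was 25.0 and 17.2 for the 22 members that end within 100 bases of the stem-loop, 17.8 and 11.3 for the 11 that run on for 101 to 500 bases, and 3.61 and 2.97 for the 12 longer ones. The ratios of middle length rested largely on Hist1h2ae, which supplied 163 of 204 and 63 of 77 counts of that class in such cells. The 17 members annotated to end before a stem-loop had 66.4 and 56.8, and the 5 with a long end and no match 0.973 and 0.396. The first of these pairs rested largely on Hist1h1b, which supplied 138 of 212 and 41 of 60 counts of its class in such cells. Under the knockout label 34 of its counts came from 1 cell. The 12 longer members supplied 2746 of 4642 and 1550 of 2651 replication-dependent counts. Among members with at least 3 CPM in 1 library, the share of counts in such cells ran from 15.1% (Hist1h4h) to 87.7% (Hist1h3c) in 7 short-ended members, from 0 (Hist1h4a) to 45.8% (Hist1h2ae) in 6 of middle length and from 0.345% (Hist4h4) to 18.0% (Hist1h1d) in 10 long ones. Hist1h3c, Hist1h2ab, Hist1h2bj and Hist1h3a reached 3 CPM only through cells with Mki67 or Top2a, so their high shares follow in part from that minimum. With the minimum set in cells without these counts, an alternative added after seeing the data, the range was 15.1% to 40.6% in 3 short-ended members, 0 to 45.8% in 6 of middle length and 0.345% to 18.0% in 9 long ones, and the ranges overlapped. Of the 17 members annotated to end before a stem-loop, only Hist2h2bb reached that minimum, at 17.6%. Hist1h2ae and Hist3h2a, H2A genes with the same 16-base stem-loop, stood at 45.8% with 151 bases after it and 1.62% with 1643. Hist1h2ae was the highest member of middle length. Hist1h2bg, an H2B gene with that stem-loop and 155 bases after it, stood at 7.69%. H2afx, the replacement gene with a stem-loop and a long end, stood at 33.0%. The classes follow annotated ends, which for the shortest models may be incomplete.

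**Figure D3:**
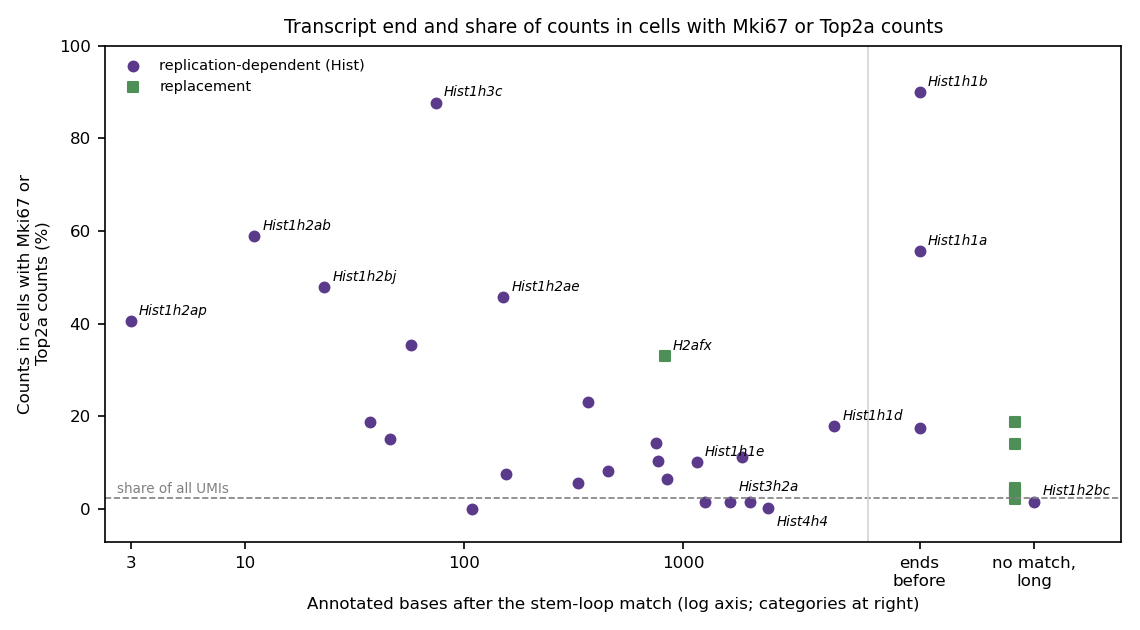
Share of each gene's counts found in microglia-like cells with Mki67 or Top2a counts (percent, both libraries) against the annotated bases after the stem-loop match (log axis), for histone genes with at least 3 CPM in 1 library; genes without a match are placed at the right. Circles are replication-dependent and squares replacement genes, and the dashed line marks the 2.46% of all UMIs in such cells. Some short-ended genes, among them Hist1h3c, pass the minimum only through such cells; with at least 3 CPM in the other cells, 3 short-ended genes lie between 15.1% and 40.6% and 9 long-ended ones between 0.345% and 18.0%.

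Detection per cell was compared at equal depth, after each cell had been thinned to 1000 UMIs (34 and 15 shallower cells left out, none with Mki67 or Top2a counts). Any replication-dependent UMI was found in 24 of 37 cells with Mki67 or Top2a counts under the wildtype label (64.9%, 47.5 to 79.8) against 669 of 2331 without (28.7%, 26.9 to 30.6). Under the knockout label it was found in 8 of 20 (40%, 19.1 to 63.9) against 374 of 1417 (26.4%, 24.1 to 28.8), and these intervals overlapped. Unthinned shares were 86.5% and 65.0% in the first library and 85.0% and 63.6% in the second. The mean number of thinned UMIs per cell was 2.97 with and 0.378 without under the wildtype label, and 2.25 and 0.352 under the knockout label. Replacement histones were found in nearly every thinned cell, 94.6% and 92.2% in the first library and 100% and 90.9% in the second.

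No cell type of the retina lacks histones, so no class gives a zero level for these shares. Müller glia or astrocyte-like cells (52 and 40 cells, median 5217 UMIs over both libraries, against 3944.5 and 4389 in microglia-like cells) had a replication-dependent UMI in 81.6% and 71.9% of thinned cells, and 1998 and 1983 CPM in all. Their share lay above that of microglia-like cells without Mki67 or Top2a counts in both libraries, although only 1 cell of the class in each library carried such counts. Border macrophage-like cells were close to microglia-like cells without them, at 25.5% and 22.9%.

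Single members separated the cells to different degrees after thinning. Hist1h2ae was found in 32.4% of cells with Mki67 or Top2a counts and 1.46% of those without under the wildtype label, and in 30% and 1.27% under the knockout label. Its level passed the minimum only through cells with these counts, so its shares are given as a description. H2afz was found in 73.0% and 25.1%, and in 65.0% and 26.0%. H2afv stood at 40.5% and 5.49%, and at 40% and 5.93%. H3f3b hardly differed, at 78.4% and 76.1%, and at 80.0% and 71.1%.

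**Figure D4:**
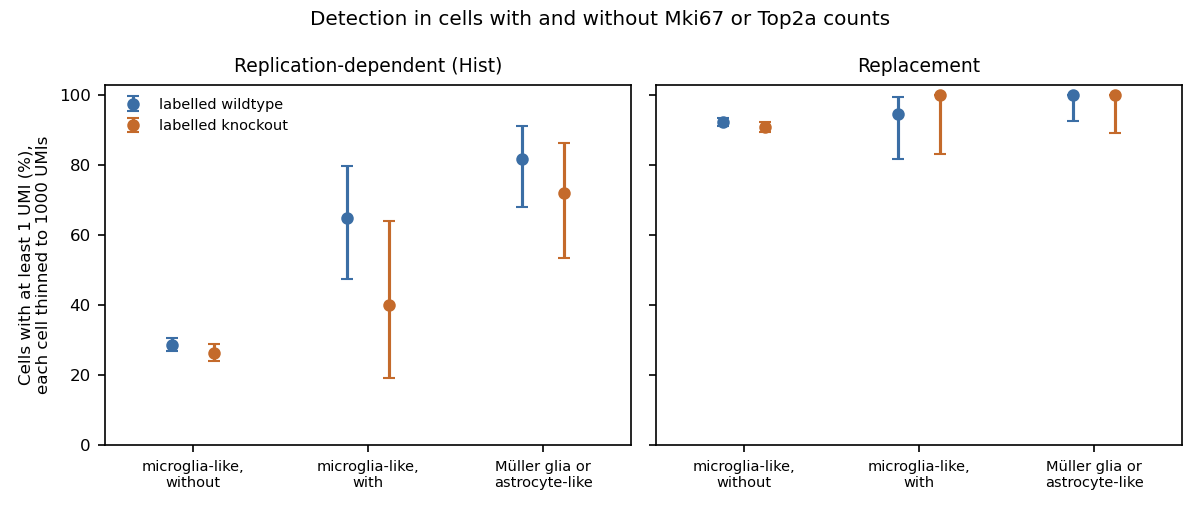
Share of cells with at least 1 UMI of a replication-dependent (left) or replacement (right) histone gene, in percent, after each cell was thinned to 1000 UMIs, for microglia-like cells without and with Mki67 or Top2a counts and for Müller glia or astrocyte-like cells. Blue marks the library labelled wildtype, orange the one labelled knockout, and bars are exact 95% binomial intervals. The replication-dependent share rises from 28.7% to 64.9% and from 26.4% to 40%, the replacement share is above 90% throughout.

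The machinery around the histones was measured alongside. Of 16 genes that process histone mRNA, 9 reached 20 CPM and none of these was 1.5-fold apart between the libraries. Over all 6227 genes at 20 CPM or more 1.54% were, so finding none in this list or those below is close to that share. Slbp, which encodes the stem-loop binding protein, stood at 83.9 and 82 CPM and was higher in cells with Mki67 or Top2a counts (2.54 and 2.96), as was Eri1, an exonuclease that trims histone mRNA ends (3.80 and 3.99). Cpsf3, the nuclease that cuts the pre-mRNA, stood at 55.0 and 51.5 CPM with ratios of 1.2 in both. Those 2 genes, Slbp and Eri1, were the ones of the 9 at least 2-fold higher in both libraries, where 2.28% of the 6194 genes with 20 CPM or more in cells without these counts were; all 9 also reached that minimum there. Among histone chaperones and remodellers, 19 of 23 reached 20 CPM, none was 1.5-fold apart, and 5 of the 19, all of which also reached 20 CPM in cells without these counts, were at least 2-fold higher in cells with Mki67 or Top2a in both libraries. The most abundant were Npm1 (414 and 413 CPM) and Atrx (167 and 124 CPM, ratio 0.743, 0.682 to 0.808). Hjurp, the chaperone of the centromeric H3, had ratios of 9.10 and 6.39 with over without. Of 23 S-phase genes, 4 reached 20 CPM and none of these was 1.5-fold apart; Tyms and Fen1 did so only through cells with Mki67 or Top2a. The other 2 reached it in cells without as well and were at least 2-fold higher in cells with, namely Pcna, the replication clamp (48.1 and 48.9 CPM, 3.9 and 4.52), and Mcm3, a subunit of the replicative helicase (42.6 and 34.5 CPM, 3.70 and 5.45). None of the 20 G2 and M genes reached 20 CPM in either library; the most abundant was Ube2c under the wildtype label (17.6 and 6.02 CPM) and Cenpf under the knockout label (17.3 and 8.28 CPM).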

How the data were processed

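The deposited files hold raw UMI counts per gene and cell barcode, 1 table per library. The authors made these counts with Cell Ranger 3.1 on the mm10 build, per the submitters' processing notes; use of strand and of reads that fit several genes is not given in the sources used here. The tables held 2735 and 1785 barcodes with 11020717 and 7945713 UMIs. Barcodes with at least 500 UMIs, 250 genes and at most 15% mitochondrial counts were kept, which removed 40 and 24. Scrublet (scanpy 1.11.5) marked 3 and 0 doublets, 0.0673% of 4456 cells. At that rate the caller has not worked, so doublets may remain among the cells. Cells of both libraries were clustered together (2000 variable genes without histone members and cell cycle lists, 30 components, 15 neighbours, Leiden resolution 1.0) into 20 clusters. Names came from marker lists, by 3 markers among the 10 leading genes of a cluster or else by relative marker level; 9 clusters were microglia-like and 1, led by Ttr and Ptgds, stayed unnamed.

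Counts were summed per class and library and given as CPM of that sum; floors are 3 counts. Fold calls were 1.5 between libraries and 2 between cells. Intervals were checked on simulated data. Every member at 20 CPM or more, and every member with at least 10 counts in cells with Mki67 or Top2a, is named; others were chosen after their values were seen. Members and lists were chosen with earlier results of these data known. Transcript ends came from GENCODE M21, in which all 67 and 12 members were found. Alternatives covered scaling, cell filter, doublets, naming, clustering genes, weighting, depth, the split and the minimum level.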

Additional observations from a re-analysis of the deposited data

How the results depend on the processing

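With 1 library per label no difference here has a replicate check, and in cells with Mki67 or Top2a counts the few cells (37 and 20) limit what can be seen. No paired analysis was possible because each group holds 1 library. Over 902 comparisons of a result with an alternative, 737 stayed within the counting interval of the reported value (for counts, within 1.5 times), 158 moved outside it and 7 crossed 1. Single members gave 636, 106 and 7 of these. The main results (summed ratios, shares of cells and the number of members apart) moved more often, with 101 within, 52 outside and 0 across. The replication-dependent ratio with over without under the wildtype label moved in 7 of 10 alternatives. Of the ratios between libraries, that of Hist1h1e ran from 0.518 to 0.586 and that of Hist3h2a from 1.5 to 2.01. The replication-dependent ratio was 0.921 without cells with Mki67 or Top2a counts and 0.906 at 1000 UMIs per cell, and the replacement ratio was 0.980 over all kept cells and 0.967 at 1000 UMIs. Members at least 1.5-fold apart numbered 1 (Hist1h1e) with cells named one by one and at a minimum of 50 CPM, and 33 with no minimum. They numbered 4 without the low-depth cluster led by ribosomal genes, an alternative added after seeing the data, as were leaving out the clusters led by Slc15a3 or by Fabp5 and Spp1 and the cells richest in Hist counts; the 4 were Hist1h1e, Hist3h2a, Hist1h2bc and Hist2h2ac.

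The replication-dependent ratio with over without Mki67 or Top2a was 12.4 and 9.99 (wildtype and knockout label) with counts of both genes required, 10.9 and 8.18 with at least 2 counts, 13 and 11.1 with at least 3 G2 and M genes, and 7.59 and 4.80 over all kept cells. Under the wildtype label, equal weight per cell gave 6.95 and 1000 UMIs per cell 7.88. Without the richest cells it was 7.63 and 3.22. The replacement ratio was, in the same order, 2.71 and 2.41, 2.52 and 2.23, 2.83 and 2.66, and 2.13 and 1.79. It was 2.04 and 2.44 at 1000 UMIs, and 2.48 with equal weight per cell under the knockout label. Both ratios stayed above 1 in each alternative run. At 1000 UMIs, the ratios of Hist1h4c in both libraries and of Hist2h2bb, Hist1h4h, Hist1h3e and Hist1h1a under the knockout label went from above 1 to 0, and those of H2afj under the wildtype label and of Hist1h2bc and H1f0 under the knockout label were also 0. Hist2h2bb under the knockout label was 0 as well without the richest cell; these alternatives hold fewer counts.

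The share with a replication-dependent UMI rose with depth. In cells with Mki67 or Top2a counts it was 86.5% (wildtype label) and 85.0% (knockout label) unthinned and 70.6% at 2000 UMIs under the knockout label, where at least 3 G2 and M genes gave 66.7%. In cells without, it was 65.0% and 63.6% unthinned, 50.8% and 47.3% at 2000 UMIs, 31.3% and 29.5% over all kept cells, and 31.4% with the stricter filter under the wildtype label. The replacement share in cells with these counts under the wildtype label was 100% unthinned, at 2000 UMIs, over all kept cells and with the stricter filter. In cells without, it was 98.9% and 99.1% unthinned, 99.3% and 98.9% at 2000 UMIs, 93.6% with the stricter filter under the wildtype label and 92.5% over all kept cells under the knockout label. Causes of these shifts other than depth and fewer cells were not tested.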
